A study of Mus musculus with 6 samples.

Results

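The miR-15 and miR-16 family was followed through induction of PU.1 in iBN cells, mouse granulocyte-macrophage progenitors per the labels, kept in suspension. Members were all arms of the hairpins miR-15a, miR-15b, miR-16 (both copies), miR-195a and miR-497a, which gave 11 of the 1915 mature microRNA names in the counted table. All cells carried an inducible system for PU.1, the myeloid transcription factor, and grew with GM-CSF and fetal bovine serum. The uninduced group (n = 3 libraries) received no doxycycline, and the induced group (n = 3 libraries) received 1000 ng/ml doxycycline for 72 hours; each holds trials 1, 2 and 3. No doxycycline-treated cells without the inducible gene were analysed here, so PU.1 and the drug itself cannot be told apart. PU.1 protein is outside this assay, and the labels do not say whether the trials were separate cultures, so the spread that the p-values rest on may be technical only.

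A microRNA hairpin is cut into a 5p and a 3p arm, and the arm that is loaded into Argonaute finds its target messenger RNAs mainly through the seed, bases 2 to 8. The 5p arms of this family share one seed and are known for restraining cell division through targets such as cyclins D and E and for promoting apoptosis through Bcl2. The miR-15a and miR-16-1 pair lies in the long noncoding RNA gene Dleu2, in a region often lost in human chronic lymphocytic leukaemia, and the miR-15b and miR-16-2 pair lies in Smc4, which encodes a condensin subunit needed for mitotic chromosomes.

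The 5p sequences below, from RefSeq (GRCm38.p6, the mm10 assembly), are shown because their common seed, in capitals, is what allows their reads to be added up as one dose. miR-322-5p is no member but has the same seed.

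miR-16-5p: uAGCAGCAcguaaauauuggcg
miR-15a-5p: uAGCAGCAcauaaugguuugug
miR-15b-5p: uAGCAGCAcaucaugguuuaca
miR-195a-5p: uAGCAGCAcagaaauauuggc
miR-497a-5p: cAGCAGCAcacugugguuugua
miR-322-5p: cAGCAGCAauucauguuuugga

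All 11 members had a RefSeq sequence. Counted from 1 at the 5′ end, miR-15a-5p and miR-15b-5p differ at 4 of 22 positions (A12C, G20A, U21C and G22A), so each names its own hairpin. miR-195a-5p differs from miR-16-5p at 2 of the 21 positions they share (G10A and U11G). The mature miR-16-5p of Dleu2 and of Smc4 is the same sequence, and its 2 entries in the table differed by 0.073% to 0.133% of their reads, so it cannot be assigned to a locus. The 3p arms can, and those used below to separate the loci and the arms are given with bases 2 to 8 in capitals.

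miR-16-1-3p (Dleu2): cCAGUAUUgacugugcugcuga
miR-16-2-3p (Smc4): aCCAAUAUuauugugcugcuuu
miR-15a-3p (Dleu2): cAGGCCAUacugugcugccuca
miR-15b-3p (Smc4): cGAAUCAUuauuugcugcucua

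Bases 2 to 8 of each of these 3p arms were shared with no other of the 1679 mature names in the RefSeq table, so only the 5p arms enter the pooled seed. In GRCm38, Mir16-1 (chr14:61631880-61631972, minus strand) and Mir15a (chr14:61632027-61632110, minus strand) lie 54 bases apart on the strand of Dleu2. Mir15a is intronic in all 8 annotated Dleu2 transcripts that span it. Mir16-1 is intronic in 8 of 9 and overlaps an exon of the other. Mir15b (chr3:69009772-69009835, plus strand) and Mir16-2 (chr3:69009902-69009996, plus strand) lie 66 bases apart in an intron of all 5 Smc4 transcripts that span them. Mir497 (chr11:70234717-70234800, plus strand), the hairpin of miR-497a, and Mir195a (chr11:70235042-70235135, plus strand) lie 241 bases apart with no host gene in GENCODE other than microRNA genes.

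The libraries held 8697384 to 13946613 reads after 1 entry was kept per name, and 0 reads in a library left room for 0.215 to 0.345 CPM (reads scaled to a common library size); these limits and the count intervals cover counting error only. Libraries with the same trial number were taken as pairs, because they deviated together from their group means in these same data. The correlations were r = 0.297, 0.416 and 0.508 for trials 1, 2 and 3. Some values are therefore also given with the trial as a block, and they rest on this pairing. The myeloid markers miR-223-3p, miR-142a-3p, miR-142a-5p and miR-155-5p were all present, with a summed level of 71720 to 90730 CPM uninduced and 74230 to 91830 CPM induced. Of the erythroid markers, miR-144-3p had no reads and miR-451a averaged 0.303 and 0.215 CPM, while miR-486a-5p had 30.3 and 38.4 CPM in uninduced and induced cells. Of the stromal markers 1 of 3 tested fell (3 with the block), the summed level being 229 to 269.6 CPM uninduced and 144.7 to 214.8 CPM induced. Both tested epithelial markers rose, from a summed 25.6 to 32.7 CPM to 69.5 to 87.6 CPM. The lymphoid markers summed to 36930 to 39210 and 28920 to 36940 CPM, with none of 3 called, or 1 lower with the block. No muscle marker passed the filter on low counts. Beside these marker counts, 6.1% of all 525 tested microRNAs were called, or 21.7% with the block. The part of these marker levels in the family's values was not tested.

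mmu-miR-16-5p carried most of the family. It took 4.53% of all reads and ranked 6 of the 525 microRNAs that passed the filter on low counts. Its level, in CPM scaled with TMM library factors, was 42695, 41617 and 43977 in the uninduced libraries of trials 1, 2 and 3 and 47324, 52339 and 44579 in the induced ones. All 3 induced libraries lay above the uninduced ones, the closest pair being those of trial 3; scaled by library totals alone the groups overlapped (41002 to 43650 uninduced, 43529 to 51364 induced). The means were 42763 CPM ± 1182 and 48080 CPM ± 3935 (SD, n = 3 each). The 1.12-fold difference (95% interval 0.968 to 1.31; log2 change 0.17, SE 0.10) did not pass edgeR's quasi-likelihood test (adjusted p = 0.363, or 0.163 with the block). With the block the interval was 0.991 to 1.27-fold. Without induced replicate 2 the log2 change was 0.09.

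mmu-miR-15b-5p and mmu-miR-15a-5p, the other abundant members with the seed, were over an order of magnitude less frequent than miR-16-5p. miR-15b-5p, made from the Smc4 locus, had 1891, 1702 and 1400 CPM uninduced and 1943, 2117 and 1356 CPM induced in trials 1, 2 and 3. The groups overlapped, and trial 3 was lowest in both. miR-15a-5p, from the Dleu2 locus, had 1196, 1325 and 1202 CPM uninduced and 1397, 1416 and 1178 CPM induced, again with overlap. Their log2 changes were 0.12 (SE 0.18, edgeR adjusted p = 0.762) for miR-15b-5p and 0.10 (SE 0.12, edgeR adjusted p = 0.681) for miR-15a-5p, and the 95% intervals reached 1.44-fold and 1.30-fold. The blocked fit gave edgeR adjusted p = 0.409 for miR-15b-5p and 0.405 for miR-15a-5p, with intervals up to 1.23-fold and 1.21-fold. With 1 library left out in turn the log2 change of miR-15a-5p ran from 0.04 (without induced replicate 2) to 0.16 (without uninduced replicate 2). That of miR-15b-5p ran from -0.03 (without induced replicate 2) to 0.25 (without induced replicate 3).

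The chromosome 11 pair was rare. mmu-miR-195a-5p had 16.2, 15.8 and 14.9 CPM uninduced and 18.7, 18.4 and 16.6 CPM induced in trials 1, 2 and 3. The groups did not overlap, the nearest libraries being those at 16.2 and 16.6 CPM, but overlapped with library totals alone. The log2 change of 0.19 (SE 0.16, 95% interval -0.16 to 0.54) did not pass (edgeR adjusted p = 0.534, or 0.223 with the block). mmu-miR-497a-5p had 3, 1 and 1 reads uninduced and 5, 2 and 7 induced, below the filter; its ratio of summed reads per total was 2.41 (exact 95% interval 0.819 to 8.54). mmu-miR-195a-3p, the minor arm, had 1, 3 and 3 reads uninduced and 1, 0 and 0 induced, a ratio of 0.123 (exact 95% interval 0.00272 to 0.956). miR-497a-3p, the remaining arm under the rule, had 0 reads in all 6 libraries, which allows up to 0.0469 CPM over them together.

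The minor arms of the abundant hairpins were tested too. mmu-miR-16-1-3p had 64.6, 53.8 and 59.5 CPM uninduced and 64.5, 55.4 and 59.8 CPM induced. In each trial the libraries of both groups were within 2 CPM of each other. mmu-miR-16-2-3p had 38.6, 41.5 and 39.0 CPM uninduced and 43.6, 37.7 and 39.4 CPM induced. mmu-miR-15a-3p had 15.479, 15.003 and 15.473 CPM uninduced and 15.695, 15.359 and 13.438 CPM induced. The groups overlapped for each of these, and their log2 changes were 0.01 (SE 0.14), 0.02 (SE 0.14) and -0.05 (SE 0.16). With RLE factors or DESeq2 the signs for miR-16-1-3p and miR-16-2-3p turned negative (-0.0135 at the lowest), so no direction is given for them.

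**Figure D1:**
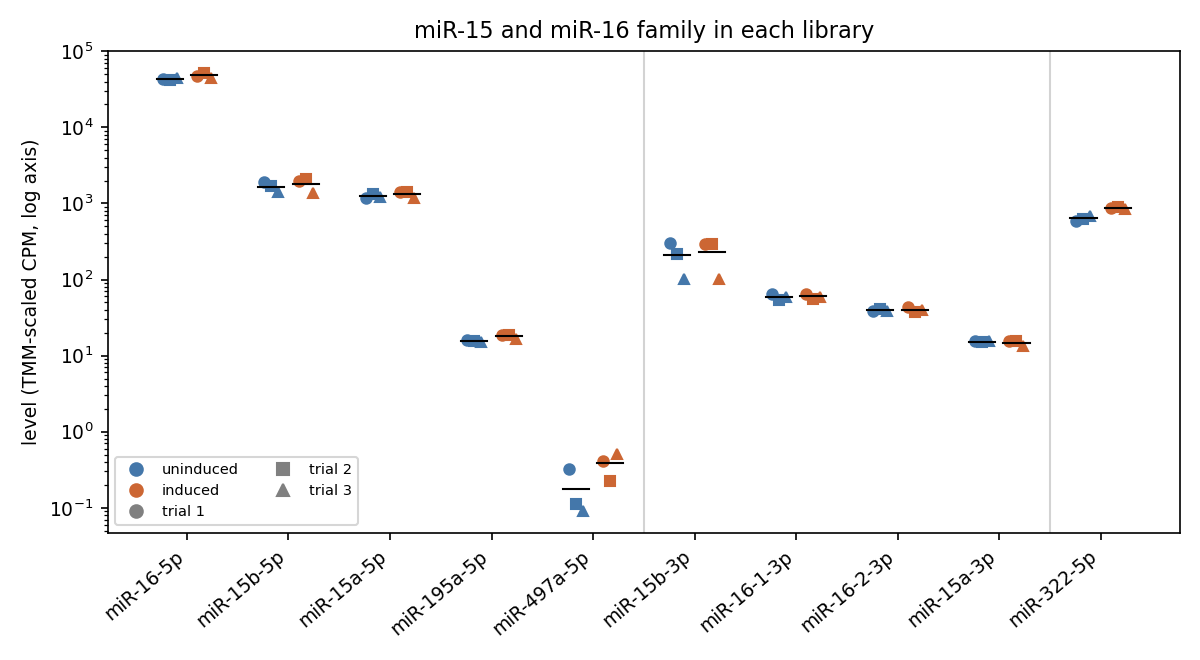
Level of each family member with reads in at least 5 libraries, and of miR-322-5p, in every library, as TMM-scaled CPM on a log axis. Blue is uninduced, orange induced, the shape gives the trial and the bar the mean of 3 libraries; miR-16-5p stands at 41617 to 52339 CPM, and miR-15b-3p is lowest in trial 3 of both groups.

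Across the family, 8 of the 11 members passed the filter and 0 of these 8 passed the test, against 32 (6.1%) of all 525 tested microRNAs, 18 higher and 14 lower. With the block 0 of 8 passed, against 114 (21.7%) of all, 56 higher and 58 lower. Without adjustment, 0 of 8 had an edgeR p under 0.05, against 109 (20.8%) of all 525, and 0 of 8 with the block, against 37.1% of all. DESeq2 and limma-voom also gave 0 of 8 at that level, against 8.63% of the 1147 names with a DESeq2 p and 20.2% of the 525 in limma-voom. Groups that did not overlap in CPM were seen for 2 of the 8, miR-16-5p and miR-195a-5p, against 145 (27.6%) of all tested. Scaled by library totals alone, 0 of the 8 were apart, against 129 (24.6%) of all tested. The median log2 change of the 8 was 0.11, with a range of -0.05 to 0.19, and that of all tested microRNAs was 0.02. These counts do not show the levels to be equal. The 95% intervals of 7 of the 8 lay between 0.756-fold and 1.46-fold, and that of miR-15b-3p ran from 0.472-fold to 2.56-fold. With the block the interval of miR-15b-3p ran from 0.921-fold to 1.28-fold.

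**Figure D2:**
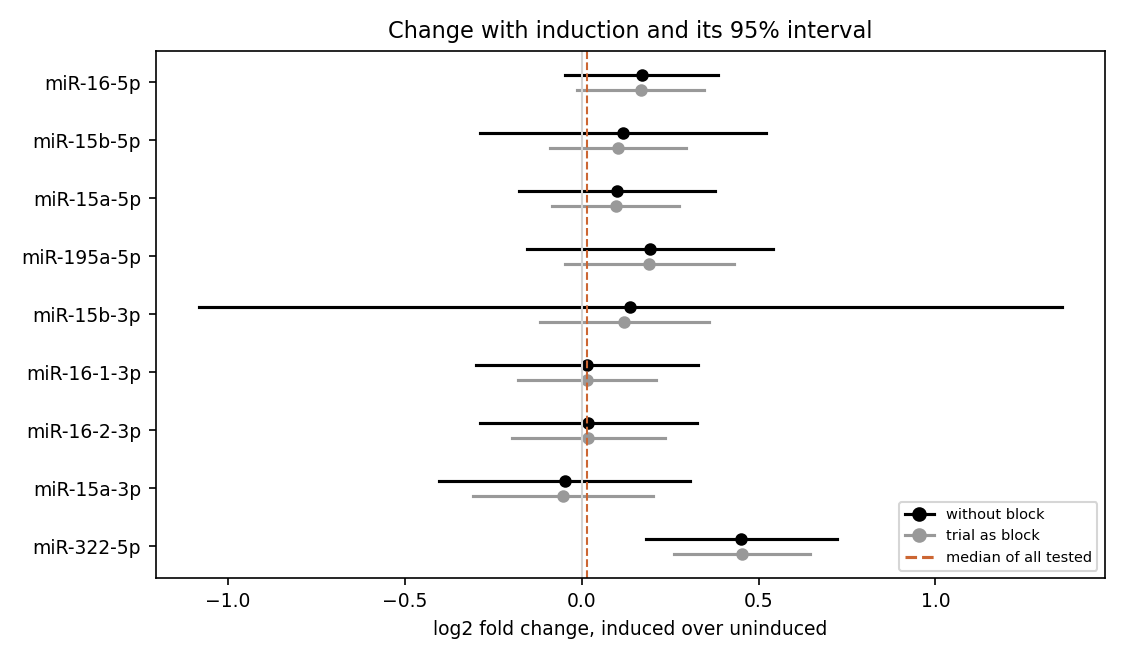
Log2 fold change of induced over uninduced cells (x axis) for the 8 tested family members and miR-322-5p, with 95% intervals from edgeR without a block (black) and with the trial as a block (grey); the dashed line is the median of all 525 tested microRNAs. The 8 family intervals span 0 in both fits, that of miR-322-5p does not, and the interval of miR-15b-3p narrows most with the block.

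The pooled dose of the shared seed was next summed in each library over the 5 family 5p arms. It was 45798, 44660 and 46595 CPM uninduced and 50683, 55890 and 47129 CPM induced in trials 1, 2 and 3. As with miR-16-5p, the 3 induced libraries were the higher ones on this scale, and the trial ratios were 1.11, 1.25 and 1.01. The group means were 45684 CPM ± 973 and 51234 CPM ± 4406 (SD, n = 3 each), a ratio of 1.12. Without induced replicate 2 the log2 ratio of the means went from 0.17 to 0.10. As a share of reads, the pool was 4.34% to 4.68% uninduced and 4.60% to 5.49% induced, so without TMM scaling the groups overlapped. No p-value is given for this sum, because its members were chosen. In bulk RNA, fewer cells with a microRNA and less of it per cell cannot be told apart.

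Of the RefSeq mature names, 10 have the bases AGCAGCA at positions 2 to 8. Besides the 5 family arms these are miR-322-5p, miR-195b, miR-6342, miR-6353 and miR-6419, the last 4 of which had 0 reads in all 6 libraries. miR-322-5p, made with miR-503 from a cluster on the X chromosome, had 592, 625 and 689 CPM uninduced and 873, 901 and 833 CPM induced. The groups were apart, and its log2 change was 0.45 (SE 0.12). It narrowly missed the threshold without the block (edgeR adjusted p = 0.056) and rose with it (edgeR adjusted p = 0.0034). The blocked call was kept without trial 2 (edgeR adjusted p = 0.038), while without trial 1 or trial 3 the p was 0.056 and 0.069. miR-503-5p shares bases 2 to 7 alone and had 5.76, 5.11 and 6.23 CPM uninduced and 8.97, 11.0 and 6.02 CPM induced, a log2 change of 0.59 (SE 0.25, edgeR adjusted p = 0.210, or 0.075 with the block).

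Within the pool of all 10 names, miR-16-5p made up 91.8% to 93.0% of the reads in the 6 libraries, miR-15b-5p 2.83% to 4.08% and miR-15a-5p 2.46% to 2.93%. miR-322-5p made up 1.28%, 1.38% and 1.46% uninduced and 1.69%, 1.59% and 1.74% induced. Every induced share of miR-322-5p was above every uninduced one, yet adding it moved the ratio of the pooled means only from 1.121 to 1.125. The log2 ratio of miR-322-5p to miR-16-5p within a library was -6.07 ± 0.09 uninduced and -5.79 ± 0.06 induced (SD, n = 3 each; exact two-sided permutation p = 0.1, the smallest that 3 against 3 libraries can give, and 0.3 after Benjamini-Hochberg adjustment over 6 such ratios). This ratio was chosen after the shares had been seen, and it was higher with induction in 3 of 3 trials.

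**Figure D3:**
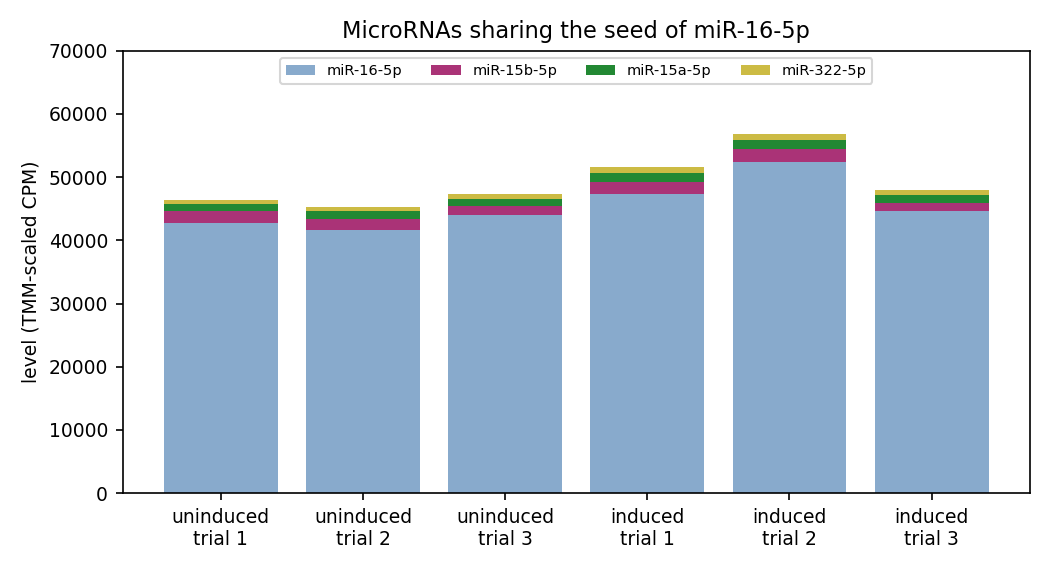
Stacked level, in TMM-scaled CPM, of the 4 most abundant microRNAs with the seed of miR-16-5p in each of the 6 libraries. miR-16-5p fills 91.8% to 93.0% of the pool, and the bar of the induced library of trial 2 is the tallest.

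The Dleu2 and Smc4 loci were compared through the arms that name a single hairpin. The ratio of miR-15b-5p to miR-15a-5p reads was 1.58, 1.28 and 1.17 in the uninduced and 1.39, 1.49 and 1.15 in the induced libraries of trials 1, 2 and 3. The Smc4 product was the more frequent one in 6 of 6 libraries, with 57.1% ± 3.8 of the 5p reads of both hairpins uninduced and 57.2% ± 3.31 induced (SD, n = 3 each). The ratio of miR-16-2-3p to miR-16-1-3p had the opposite order. It was 0.598, 0.771 and 0.655 uninduced and 0.676, 0.680 and 0.659 induced, with the Dleu2 product the more frequent one in 6 of 6 libraries. The Smc4 product here took 40.2% ± 3.09 and 40.2% ± 0.41 of the reads of both arms (SD, n = 3 each). The mature sequences compared have 22 bases each, so no scaling for length was applied. Which locus appeared the stronger thus depended on whether the miR-15 or the miR-16 arms were counted. The 3p arms of miR-15 also name single hairpins, and their ratio, added after the data had been seen and not tested, was 19.7, 14.3 and 6.63 uninduced and 18.4, 19.1 and 7.57 induced for miR-15b-3p over miR-15a-3p. It put the Smc4 product ahead in 6 of 6 libraries, by more than the 5p arms did, and was lowest in trial 3 of both groups.

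Neither ratio moved with induction beyond its spread. The mean log2 ratio of miR-15b-5p to miR-15a-5p was 0.41 ± 0.23 uninduced and 0.42 ± 0.19 induced (SD, n = 3 each), and that of miR-16-2-3p to miR-16-1-3p was -0.57 ± 0.18 and -0.57 ± 0.02. The exact two-sided permutation p was 1 for both. With replicates left out in turn, the induced minus uninduced difference ranged from -0.09 to 0.13 for the miR-15 ratio and from -0.08 to 0.10 for the miR-16 ratio.

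**Figure D4:**
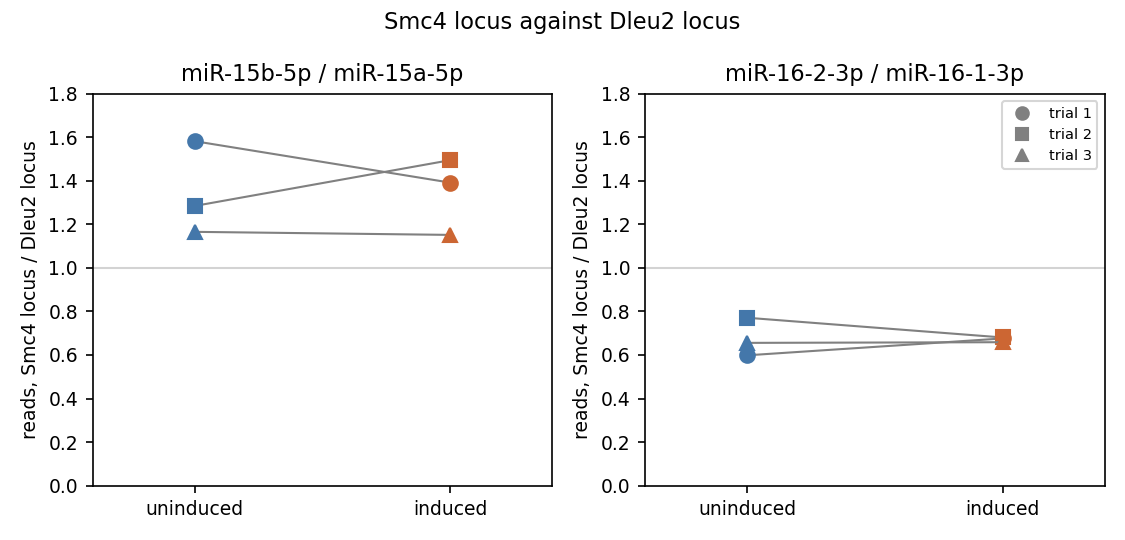
Reads of the Smc4 locus over reads of the Dleu2 locus in each library, for the miR-15 5p arms (left) and the miR-16 3p arms (right); lines join the libraries of a trial and the grey line marks equal reads. All 6 points lie above 1 on the left and below 1 on the right, with no common direction from uninduced to induced.

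The member that varied most was mmu-miR-15b-3p, the minor arm of the Smc4 hairpin miR-15b. It had 304, 215 and 103 CPM in the uninduced and 289, 293 and 102 CPM in the induced libraries of trials 1, 2 and 3. Trial 3 was the lowest in both groups, and the highest library exceeded it 2.96-fold uninduced and 2.88-fold induced. The log2 change with induction was 0.14, with an SE of 0.51 that fell to 0.11 with the block, and did not pass either way (edgeR adjusted p = 0.896 and 0.441). Within trials the log2 difference was -0.07, 0.45 and -0.01. Its coefficient of variation within a group was 48.7% and 48.0%, against 1.78% to 22.1% for the other 7 tested members.

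A test of the trial itself in the blocked fit, chosen after these counts had been seen, passed 2 of the 8 members, miR-15b-3p (edgeR adjusted p = 0.000296) and miR-15b-5p (edgeR adjusted p = 0.013), against 114 (21.7%) of all 525. The share of members called was thus near the background, but miR-15b-3p had the lowest p of all tested microRNAs. miR-16-2-3p, cut from the same Smc4 intron 66 bases away, differed between trials by 1.07-fold uninduced and 1.16-fold induced from its lowest to its highest library (edgeR adjusted p of the trial = 0.890). A difference between these arms in their dependence on trial was not tested.

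The arms of miR-15b accordingly changed their balance with the trial. The ratio of miR-15b-5p to miR-15b-3p reads was 6.22, 7.92 and 13.6 uninduced and 6.72, 7.23 and 13.3 induced, so both groups gave nearly the same value within a trial. Between groups its log2 mean was 3.13 ± 0.58 and 3.11 ± 0.54 (SD, n = 3 each; exact two-sided permutation p = 0.9). Of the 150 hairpins with both arms tested, miR-15b ranked 9 by the size of the trial 3 shift. Its log2 ratio there was 0.95 above the mean of trials 1 and 2, while the middle of all hairpins ran from -0.27 to 0.39 (lower to upper quartile). Trial 3 was singled out after miR-15b-3p had been seen to be lowest there. Hairpins that stand out in trial 1 or 2 are not ranked by that, so the rank favours miR-15b and was not tested. The shift of miR-15a was -0.07. miR-15a kept a 5p to 3p ratio of 77.3, 88.3 and 77.7 uninduced and 89.0, 92.2 and 87.6 induced. It was higher with induction in 3 of 3 trials (log2 difference 0.15, exact two-sided permutation p = 0.2). By size, this difference ranked 76 among the 150 hairpins.

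The arm ratio of miR-195a rests on 0 to 3 reads of its 3p arm per library. With 0.5 read added to each arm, its log2 mean was 5.85 ± 0.71 uninduced and 8.14 ± 0.82 induced (SD, n = 3 each; exact two-sided permutation p = 0.1, the smallest possible). The difference went from 2.29 to 1.75 with 1 read added. After adjustment over the 6 ratios within libraries the p-values were 1 for both locus ratios and miR-15b, 0.4 for miR-15a and 0.3 for miR-195a. These 6 include the ratio of miR-322-5p to miR-16-5p, chosen after its shares had been seen. Its exact two-sided permutation p was 0.1, and including it lowered the adjusted p-values of miR-195a and miR-15a.

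**Figure D5:**
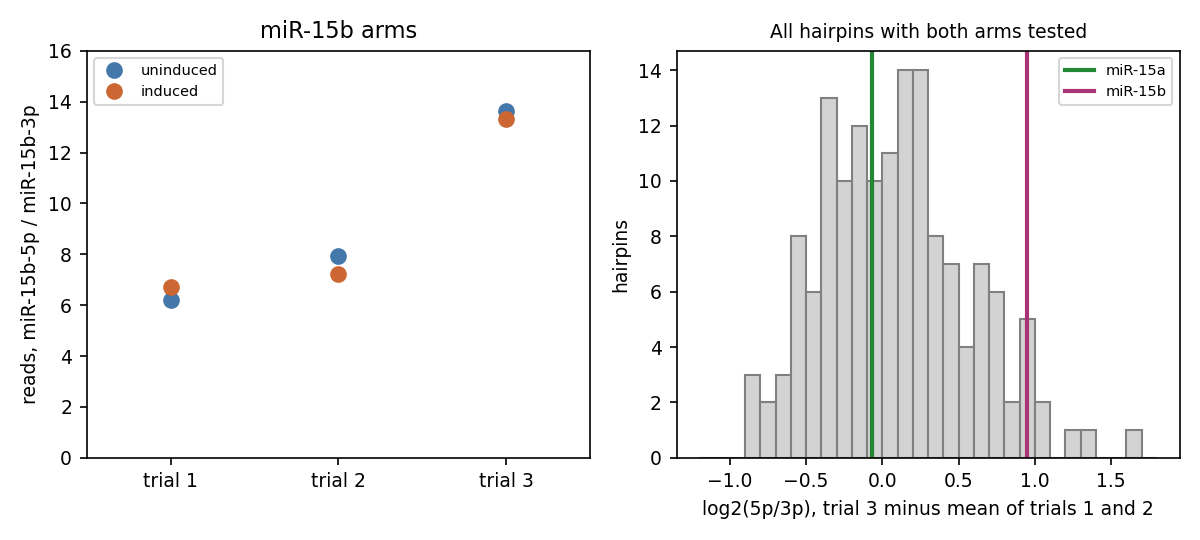
Left, reads of miR-15b-5p over reads of miR-15b-3p in each library by trial, where trial 3 stands at 13.3 and 13.6 and the other 4 libraries at 6.22 to 7.92. Right, histogram over the 150 hairpins with both arms tested of the log2 arm ratio in trial 3 minus the mean of trials 1 and 2, averaged over the groups, with miR-15a at -0.07 and miR-15b at 0.95. Trial 3 was chosen for this contrast after the counts of miR-15b-3p had been seen.

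The 5 tested microRNAs whose log2 CPM followed miR-16-5p most closely over the 6 libraries were miR-106b-3p (Pearson r = 0.997), miR-503-5p (0.976), miR-1843a-5p (0.971), miR-1982-3p (0.950) and miR-361-5p (0.943). These values rest on 6 libraries that share trials, and the 5 were picked as the highest. Among them miR-503-5p had only 46 to 108 reads in a library. Members of the family were less close, with r = 0.787 for miR-195a-5p, 0.657 for miR-15a-5p and 0.535 for miR-15b-5p. The 3p arms made with it had r = -0.10 for miR-16-1-3p and -0.22 for miR-16-2-3p. The closest pair within the family were the arms of miR-15b, with r = 0.969.

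The family was last set beside 19 microRNAs known for restraining the cell cycle, which include miR-322-5p and miR-503-5p. Of the 18 tested, 1 rose and 1 fell, beside 6.1% called of all 525, and the median log2 change was -0.11, beside 0.02 for all. By name, miR-449a-5p rose from 3.30 to 8.29 CPM on average (log2 change 1.32, SE 0.24, edgeR adjusted p = 0.013), a call lost without induced replicate 2 or uninduced replicate 1 (edgeR adjusted p = 0.071 and 0.072) and in the blocked fit without trial 3 (edgeR adjusted p = 0.054). In turn, miR-34c-5p fell from 11.2 to 4.71 CPM (log2 change -1.24, SE 0.29, edgeR adjusted p = 0.035), a call lost in 5 of the 6 fits that left out 1 library, with p up to 0.151 without induced replicate 2, kept only without uninduced replicate 3. It was also lost with library totals alone (edgeR adjusted p = 0.0504), limma-voom (adjusted p = 0.062), limma on the authors' CPM (adjusted p = 0.064) and the blocked fit without trial 3 (edgeR adjusted p = 0.098). With the block 2 rose and 2 fell of 18, a share near the 21.7% called of all 525; the others were miR-322-5p and let-7a-5p (log2 change -0.44, SE 0.11; edgeR adjusted p = 0.05045 without and 0.0034 with the block).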

How the data were processed

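Small RNA libraries of 6 samples, 3 per group, were analysed from the authors' deposited raw read counts (2061 entries, 1915 mature names). Reads were aligned to miRBase per the series' design text, with Trim Galore 0.4.0, DESeq2 and mm10 per the submitters' processing notes. For the counter and the miRBase release the sources used here give no name. The authors also deposited CPM values, equal to the counts scaled by each library's sum within 0.005 and used in 1 alternative (limma on log2 of CPM plus 1).

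Names with several entries were represented by the one with most reads (17.5% of reads left out). Replicates differed beyond sampling noise (chi-square over its degrees of freedom 115 or more). edgeR 4.0.16 (R 4.3.3) was run on all names with filterByExpr, TMM, glmQLFit (robust) and glmQLFTest; two-sided p-values were adjusted by Benjamini-Hochberg, threshold 0.05; 525 names were tested, and the code was tested on simulated data. Alternatives used DESeq2 1.42.0 and limma 3.58.1. Fold changes are induced over uninduced, and 95% intervals use the fit's SE and degrees of freedom. Log2 ratios within libraries added 0.5 read and were compared by exact permutation.

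Same-trial libraries deviated together from their group means (r = 0.297, 0.416 and 0.508 across tested names), so the trials, numbered in the labels, were taken as pairs. Named microRNAs were all members, those with the same seed, the 5 closest to miR-16-5p, and from the cell-cycle list those past the threshold. let-7a-5p was named because it passed with the block. Members and lists were chosen with earlier results of these data known.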

Additional observations from a re-analysis of the deposited data

How the results depend on the processing

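Of the 8 tested members, 0 were called in any of the 19 fits, the lowest adjusted p being 0.163 (miR-16-5p, blocked). The count over all microRNAs was 32, with 114 under the replicate block, 20 with limma-voom and 12 to 41 with 1 library left out. Blocked fits without trial 1, 2 or 3, chosen after seeing the data, gave 66, 60 and 12. Of 144 alternative values of member fold changes 124 kept their direction. The other 20, none called, concern members near 0 or tied to trial. For miR-16-1-3p and miR-16-2-3p the log2 change was -0.0036 and -0.0005 with RLE factors and -0.0135 and -0.0095 with DESeq2. In the blocked fits it was -0.0612 for miR-16-2-3p without trial 1, and without trial 2 -0.0477 for miR-15b-3p, -0.0076 for miR-15b-5p and -0.0017 for miR-16-1-3p. For miR-15a-3p it was 0.013 without trial 3. With 1 library left out it ran from -0.21 to 0.49 for miR-15b-3p, -0.0256 to 0.25 for miR-15b-5p, -0.0392 to 0.0644 for miR-16-1-3p and -0.0354 to 0.0613 for miR-16-2-3p. The difference in the miR-15b arm ratio then ran from -0.33 to 0.30, the locus difference from -0.0912 to 0.13 (miR-15) and from -0.0821 to 0.10 (miR-16). The cause of these changes was not tested. Without induced replicate 2 the log2 change of miR-16-5p was 0.09 and of miR-15a-5p 0.04. The groups were apart for 2 of 8 members (miR-16-5p and miR-195a-5p) with TMM or RLE factors and for 0 of 8 with library totals alone, where those of the pooled seed overlapped too (scalings compared after seeing the data). The pooled seed's log2 ratio kept its sign, from 0.10 to 0.22. Depth limits miR-497a and miR-195a-3p, and 3 libraries a group limit the ratios, whose smallest possible p is 0.1 (0.25 paired by trial).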
